A study of Mus musculus with 14 samples.

Results

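The caput, the first region of the mouse epididymis, was sequenced for small RNA in 2 preparations, isolated epithelial cells (2 libraries) and whole tissue (3 libraries), which are 5 of the 14 libraries of the study. The members were chosen by region and preparation alone, as given by the sample labels, and the 2 tables were joined by the name of the mature miRNA. The study set out to profile miRNAs along the epididymis, and it added the epithelial preparation to remove the contribution of spermatozoa and luminal fluid. All 5 libraries came from male Swiss mice aged 8 weeks, and neither preparation carried an experimental treatment or an engineered allele. The methods of the study describe the vasculature as perfused with PBS in every animal before dissection. Whole tissue was extracted directly, so that it held epithelium, smooth muscle, vessels, connective tissue and luminal contents. For the epithelial cells, the lumen was cleared by incision, and the tissue was minced and digested with trypsin and collagenase. The cells were then incubated for hours in culture medium with serum, and those that stayed in suspension while others attached to plastic were kept. Each library stands for a pool of animals, so variation between animals cannot be read from them. The sources call the replicates biological in one place and technical in another, and p-values here measure only the spread between these libraries. A library of cells and a library of tissue differ in digestion, incubation with serum and handling, in depth and in the naming of miRNAs in their tables as well as in cell type. These cannot be told apart. In bulk RNA, fewer cells of a type and less miRNA per cell cannot be told apart either.

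Mature miRNAs are about 22 bases long and are cut from the arms of a hairpin precursor, the 5′ arm (5p) and the 3′ arm (3p). One arm, the guide, is usually retained by an Argonaute protein, and the other, the passenger, is mostly degraded. Bases 2 to 8 of the guide, the seed, pair with target mRNAs, so that miRNAs with the same seed form a family. In the caput, whose epithelium secretes most of the proteins that spermatozoa meet first, DICER1-dependent miRNAs are known to be needed for a differentiated epithelium. The miR-200 family and miR-205 are known as miRNAs of epithelia, miR-143 and miR-145 of smooth muscle, miR-126 of endothelium, and miR-451 and miR-486 of red blood cells.

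Of the 304 miRNAs tested, 254 matched a mature sequence in RefSeq (GRCm38.p6), and those shown here carry the comparisons that follow, with the seed in capitals. The first set shows the arms of hairpins whose products moved apart between the preparations.
miR-205-5p: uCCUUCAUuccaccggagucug
miR-205-3p: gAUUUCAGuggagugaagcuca
miR-214-5p: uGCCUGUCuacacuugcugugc
miR-214-3p: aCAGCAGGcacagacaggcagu
miR-199a-5p: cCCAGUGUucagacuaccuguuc
miR-199a-3p: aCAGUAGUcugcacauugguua
miR-22-5p: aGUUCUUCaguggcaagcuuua
miR-22-3p: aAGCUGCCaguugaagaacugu
Mir205 lies at chr1:193507463-193507530 (minus strand) within an exonic part of the long noncoding RNA 4631405K08Rik. Mir214 lies at chr1:162223368-162223477 and Mir199a-2 at chr1:162217814-162217923, both on the plus strand in exons of Dnm3os, within an intron of Dnm3 on the other strand. Mir22 lies at chr11:75463716-75463810 on the plus strand in exons of Mir22hg and Tlcd2.

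The second set shows the epithelial miRNAs, which carry different seeds.
miR-200a-3p: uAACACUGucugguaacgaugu
miR-141-3p: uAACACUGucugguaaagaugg
miR-200b-3p: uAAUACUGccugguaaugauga
miR-200c-3p: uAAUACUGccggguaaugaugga
miR-429-3p: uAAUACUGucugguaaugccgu
miR-203-3p: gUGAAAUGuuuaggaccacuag
Mir200a, Mir200b and Mir429 lie within 2 kb of one another on chromosome 4, in introns of Ttll10 (chr4:156054896-156054985 for Mir200a), and Mir141 (chr6:124717914-124717985) lies beside Mir200c (chr6:124718322-124718390). miR-200a-3p and miR-141-3p share the seed AACACUG and differ at 2 of 22 positions.

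The third set shows members of 1 seed family, let-7, that did not move alike.
let-7a-5p: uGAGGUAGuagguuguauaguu
let-7b-5p: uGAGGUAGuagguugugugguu
let-7c-5p: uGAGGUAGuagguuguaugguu
let-7f-5p: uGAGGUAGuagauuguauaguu
let-7i-5p: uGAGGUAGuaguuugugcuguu
miR-98-5p: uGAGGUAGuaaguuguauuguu
let-7c-5p and let-7f-5p each differ from let-7a-5p at 1 of 22 positions, and let-7b-5p differs from let-7c-5p at 1.

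The last set shows a near-identical pair that moved differently, 2 miRNAs of 1 family of which only miR-181c-5p was called, and miRNAs with large differences.
miR-101a-3p: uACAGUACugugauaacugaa
miR-101b-3p: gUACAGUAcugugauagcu
miR-146a-5p: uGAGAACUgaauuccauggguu
miR-146b-5p: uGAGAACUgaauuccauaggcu
miR-132-3p: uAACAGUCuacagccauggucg
miR-411-5p: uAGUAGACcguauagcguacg
miR-181a-5p: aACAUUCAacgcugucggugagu
miR-181c-5p: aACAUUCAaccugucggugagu
Mir101b lies in an intron of Rcl1 (chr19:29135279-29135375, plus strand), Mir101a in an exon of the noncoding E130102H24Rik (chr4:101346945-101347027, minus strand), Mir132 in an intron of the noncoding 1700016P03Rik (chr11:75173682-75173747, plus strand), and Mir411 at chr12:109710175-109710256 in the imprinted Dlk1-Dio3 region. As RefSeq gives them, miR-101a-3p (21 bases) and miR-101b-3p (19 bases) share a run of 15 bases but begin 1 base apart, so that their listed seeds differ.

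The epithelial libraries held 362867 and 324907 counts and the tissue libraries between 1724443 and 2135501, on average 5.43 times as many. CPM values of single miRNAs given here are scaled by the trimmed mean of M-values (TMM). A count of 10 corresponded to between 27.6 and 30.8 CPM (counts per total count of the library, on a common scale) in an epithelial library and to between 4.68 and 5.80 CPM in a tissue library, so values of weak miRNAs were less precise in epithelial cells. Spearman's rho over miRNAs, which are not independent replicates, was 0.984 between the epithelial libraries, 0.988 to 0.992 among tissue libraries and 0.888 to 0.907 between the preparations. Both epithelial libraries had miR-143-3p, a smooth muscle miRNA, as the most abundant miRNA (12.4% and 17.8% of counts), whereas miR-22-3p led in tissue libraries 1 and 2 (13.1% and 16.2%) and miR-148a-3p in tissue library 3 (15.2%). miR-143-3p is not a defining miRNA of epithelium. All 8 listed epithelial miRNAs were detected in both epithelial libraries, but they also passed a mean count of 10 in tissue, so their detection does not set the preparations apart. The methods describe a check of the isolated cells by staining for androgen receptor and for sperm acrosomes, and the purity of these sequenced libraries was not tested here.

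The first question was which miRNAs were detected in each preparation. With a mean count above 10 as the criterion, 304 miRNAs were identified in caput tissue and 196 in caput epithelial cells, and all 196 were among the 304. The other 108 were identified in tissue alone. Only 26 of these would have been expected above 10 counts at the epithelial depth had they had the same share of counts, so most of the gap was not detectable at this depth. When tissue counts were scaled to the epithelial total, 203 miRNAs were identified in tissue, of which 177 were shared. No miRNA was above 10 in epithelial cells and at 3 counts or fewer in every tissue library, and 38 showed the opposite pattern. By mean tissue count, the most abundant of the 38 were miR-298-5p, miR-30b-3p, let-7f-1-3p, miR-871-5p and let-7e-3p. miR-298-5p was at 31.7, 36.9 and 41.8 CPM in tissue against 2 and 0 counts in epithelial cells, at least 4.13-fold lower when 3 counts per library are taken as the floor. miR-30b-3p, the passenger of miR-30b, had 3 counts in each epithelial library and was at least 4.07-fold lower. let-7f-1-3p was at least 3.83-fold lower, miR-871-5p at least 2.84-fold and let-7e-3p at least 2.12-fold, although for let-7e-3p the test gave an adjusted p of 0.0662.

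Levels differed widely between the preparations. A miRNA was called where limma-voom gave a false discovery rate (FDR) under 0.05 and the preparations differed 2-fold or more. By this rule 112 of the 304 tested miRNAs were called (36.8%), of which 50 were higher in epithelial cells (16.4%) and 62 lower (20.4%). The libraries of the preparations did not overlap for 222 miRNAs (73%). The median log2 fold change (epithelial cells over tissue) was -0.08 over all tested miRNAs, with quartiles at -0.95 and 0.60. Among the 196 miRNAs above 10 in both preparations, 47 were higher and 19 lower, with a median of 0.19. The 108 miRNAs that passed only through tissue had, by the filter, a mean of 10 counts or fewer in epithelial cells. With an unchanged share, 82 of them would be expected at such counts. They gave 43 of the lower calls and 3 of the higher ones, and 62 were not called. Most of the lower calls therefore come from miRNAs that were chosen by their tissue level, and the 19 are the ones measured on both sides. The split depended on the filter, and a fit of miRNAs with a mean above 10 in both preparations called 69, with 38 higher and 31 lower.

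**Figure D1:**
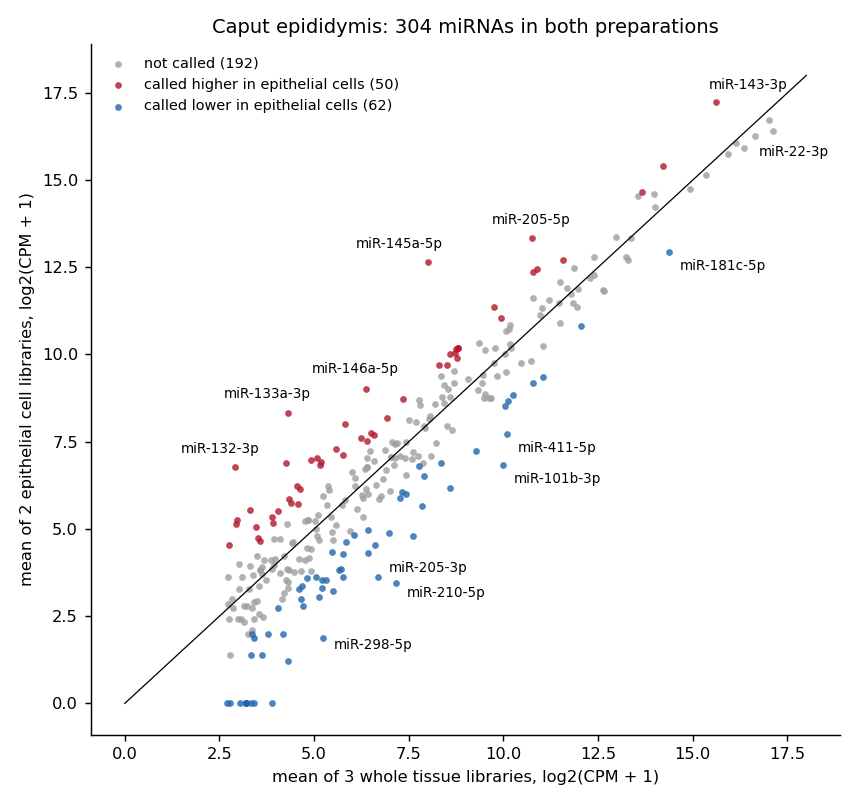
Mean level of each of the 304 tested miRNAs in 3 whole tissue libraries (x axis) and 2 epithelial cell libraries (y axis), both as log2(CPM + 1), with the line of equal level. Red points (50) were called higher in epithelial cells and blue points (62) lower, and most blue points lie at the weak end of the range, where epithelial counts were few.

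The most abundant miRNAs of the caput differed by less than 2-fold, with the exception of miR-143-3p. miR-148a-3p, which is abundant in secretory epithelia, was at 107586 and 110459 CPM in epithelial cells and at 115912 to 156210 CPM in tissue (log2 fold change -0.27 ± 0.13 SE, adjusted p = 0.101 by limma). The Hox-cluster miRNAs miR-10a-5p (68056 and 69970 CPM against 67136 to 76433) and miR-10b-5p (75764 and 81223 against 92404 to 106944) stood at -0.07 and -0.37. miR-191-5p, with 61373 and 61416 CPM against 80200 to 89310, stood at -0.44 ± 0.09. miR-22-3p was at 84931 and 88276 CPM in epithelial cells and at 127270, 158670 and 142972 CPM in tissue. Its epithelial libraries were both below every tissue library, but at 1.64-fold the difference did not reach the 2-fold criterion (-0.72 ± 0.11, adjusted p = 0.00051).

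The markers of epithelium did not move as a group. Of the 8 listed miRNAs, 2 rose, against 16.4% of all tested miRNAs, and 6 were not called, with a median log2 fold change of 0.08. miR-205-5p, which represses the mesenchymal factors ZEB1 and ZEB2, was at 9616 and 10968 CPM in epithelial cells and at 1994, 1586 and 1580 CPM in tissue. All epithelial values were several times the highest tissue value, a 6.0-fold difference (2.59 ± 0.13, adjusted p = 3.13e-06). miR-203-3p, a miRNA of stratified epithelia, rose from 124, 80.6 and 61.9 CPM to 249 and 183 CPM (1.35 ± 0.31, adjusted p = 0.00487). No 3p arm of the miR-200 family, which also targets ZEB1 and ZEB2, was called by limma at 2-fold with the filter used here. Of the passenger arms, miR-141-5p and miR-200c-5p fell, and miR-200a-5p and miR-200b-5p were not called. The pair with the seed AACACUG was lower in every epithelial library: miR-200a-3p was at 3526 and 3812 CPM against 6140 to 6615 CPM (-0.78 ± 0.11), and miR-141-3p at 942 and 860 CPM against 1588 to 1773 CPM (-0.90 ± 0.13). Neither reached 2-fold, although miR-141-3p was called in 5 of 13 alternative analyses and miR-200a-3p in 3. The members with the seed AAUACUG stayed close to their tissue level, with log2 fold changes of 0.35 ± 0.11 for miR-200b-3p, 0.24 ± 0.11 for miR-200c-3p and -0.08 ± 0.11 for miR-429-3p. Mir200a and Mir200b are neighbors, as are Mir141 and Mir200c, so that each genomic pair held 1 member of either kind. miR-375-3p, a miRNA of endocrine and secretory cells, was at 3628 and 3560 CPM in epithelial cells and at 5282, 9339 and 4618 CPM in tissue, where tissue library 2 was the highest (-0.76 ± 0.28, adjusted p = 0.042 by limma, below 2-fold). It was called lower in 2 of 13 alternative analyses. Together the epithelial markers made up 2.93% and 2.84% of epithelial counts and 2.56%, 2.95% and 2.32% of tissue counts, and these ranges overlapped (exact two-sided permutation p = 0.6). With 2 libraries against 3, the smallest exact two-sided p is 0.2, so no summed share can pass a threshold of 0.05.

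Markers of other cell types were present in the epithelial preparation, and several were higher there than in tissue. Of the 3 smooth muscle miRNAs tested, 2 rose, against 16.4% of all tested miRNAs. miR-143-3p was at 120522 and 189296 CPM in epithelial cells and at 56635, 47059 and 46272 CPM in tissue (1.60 ± 0.17, adjusted p = 8.40e-05). miR-145a-5p, made from the same primary transcript, was at 3636 and 9157 CPM against 344, 211 and 208 CPM, the largest rise measured in both preparations (4.53 ± 0.36, 23.1-fold, adjusted p = 1.30e-05). The epithelial libraries did not overlap with tissue for either miRNA, and for miR-145a-5p epithelial library 2 stood far above epithelial library 1. Smooth muscle markers together made up 12.8% and 18.7% of epithelial counts against 4.54% to 5.90% of tissue counts, 3.09 times as much on average. The striated muscle miRNA miR-133a-3p rose from 14.5, 22.7 and 19.7 CPM to 296.99 and 347 CPM (4.08 ± 0.23, adjusted p = 3.13e-06), whereas miR-1a-3p, its partner in muscle, was at 7 and 3 counts in epithelial cells and was not called (0.87 ± 0.51). The endothelial miR-126a-3p was at 2892 and 2347 CPM against 877, 839 and 852 CPM (1.61 ± 0.13, adjusted p = 1.30e-05). Its other arm, miR-126a-5p, was at the 2-fold boundary (1.00 ± 0.14) and lost its call in 8 of 12 alternative analyses. Endothelial markers were 2.02 times as large a share of counts in epithelial cells. The red blood cell miRNAs miR-451a (120 and 114 CPM against 22.8, 15.9 and 15.8) and miR-486a-5p (259.5 and 255 CPM against 57.9, 52.2 and 55.7) rose by 2.72 ± 0.26 and 2.22 ± 0.17. Their summed share was 4.86 times that of tissue, but it was under 0.05% of counts in every library.

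Stromal and leukocyte markers moved in both directions. Of the 6 stromal miRNAs, miR-214-3p and the indistinguishable miR-199a-3p and miR-199b-3p (identical counts in every library) rose, and miR-214-5p and miR-199b-5p fell, against 16.4% higher and 20.4% lower over all tested miRNAs, and the summed share of the list was 1.49 times that of tissue. Among leukocyte miRNAs, the lymphocyte miR-150-5p rose (185 and 124 CPM against 41.4 to 52.3 CPM, 1.73 ± 0.23), whereas the pan-leukocyte miR-142a-3p fell from 30.7 to 34.1 CPM to 16.1 and 6.54 CPM (-1.42 ± 0.36, on 6 and 2 counts). That fall was not called without epithelial library 2. miR-142a-5p, the most abundant of the list (516 and 337 CPM against 729 to 918 CPM, -0.94 ± 0.20), and the myeloid miR-223-3p (-1.07 ± 0.49) were not called, although miR-142a-5p was called lower in 5 of 12 alternative analyses, and the summed leukocyte share was 1.51 times as large in tissue. Of 4 nerve miRNAs, 2 were lower, against 20.4% of all tested miRNAs, and 2 were not called, miR-218-5p (0.38 ± 0.22) and miR-9-3p (-0.71 ± 0.44). The falls were those of miR-138-5p and miR-9-5p, from 548, 754 and 570 CPM to 171 and 131 CPM (-2.02 ± 0.25) and from 1170 to 1272 CPM to 514 and 405 CPM (-1.40 ± 0.15). Their summed share was 2.68 times as large in tissue, and no library overlapped. The list for liver and serum had 0 members in the joined table. The part of other cell types in the differences of single miRNAs was not tested.

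**Figure D2:**
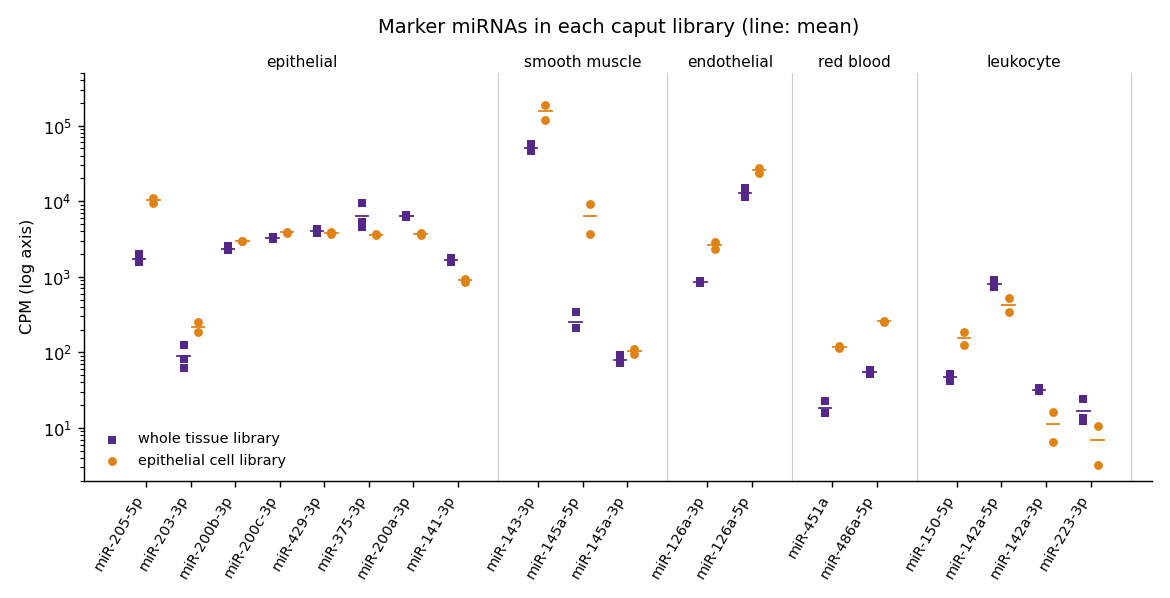
CPM of marker miRNAs on a log axis in each caput library, with whole tissue libraries as squares, epithelial cell libraries as circles and the mean of each as a line. The smooth muscle, endothelial and red blood cell markers stand higher in epithelial cells (miR-145a-3p by 0.40 on the log2 scale, not called), while the epithelial markers range from higher (miR-205-5p) to lower (miR-141-3p).

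Spermatozoa are the content that the isolation was meant to remove, and the germ cell miRNAs that fell were all too weak in epithelial cells to pass the filter there. Of the 15 tested of 27 listed, 6 fell, the highest value was 0.27 and the median was -0.77, or -0.58 with 4 members at their floor bound. Of these 15, 9 passed only through tissue, among them all 6 that fell, and 39.8% of all miRNAs that passed in this way were called lower (20.4% over all tested). The 6 measured in both preparations were not called, with values from -0.68 (miR-871-3p) to 0.27 (miR-34b-5p). The X-linked testis cluster members miR-743b-3p (8 and 5 counts, -2.05 ± 0.33) and miR-881-3p (9 and 10 counts, -2.07 ± 0.34) fell, as did miR-871-5p, miR-465a-5p, miR-465a-3p and miR-743a-3p, each at 2 counts or fewer in both epithelial libraries. Against the floor of 3 counts, miR-871-5p was at least 2.84-fold and miR-465a-5p at least 1.91-fold lower, whereas miR-743a-3p (at least 1.05-fold) and miR-465a-3p were too weak in tissue to fix a fold. The counts of miR-465a-3p were identical to those of miR-465b-3p and miR-465c-3p, among which shared reads were divided. The call of miR-743a-3p rests on the settings used, since 7 of 10 alternative analyses lost it. The most abundant germ cell miRNA, miR-34c-5p, was at 3350 and 3524 CPM in epithelial cells and at 2931, 3909 and 3704 CPM in tissue (-0.02 ± 0.15, adjusted p = 0.912). It is also known in ciliated and other epithelia. Because of it, the summed share of the list was 0.403% and 0.377% in epithelial cells and 0.409% to 0.476% in tissue.

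Among the largest rises were miR-132-3p and miR-146a-5p, from a list of miRNAs that cells are known to induce in response to stimuli. Of its 7 tested members 3 rose, against 16.4% of all tested miRNAs, while the summed share of the list, mostly miR-21a-5p, was 3.79% and 3.78% in epithelial cells and 4.06% to 4.76% in tissue. miR-132-3p, an activity- and cAMP-responsive miRNA, was at 99.0 and 118 CPM in epithelial cells and at 7.79, 8.51 and 3.36 CPM in tissue, 17.3-fold apart (4.11 ± 0.37, adjusted p = 3.12e-05). miR-146a-5p, a target of NF-kappaB that dampens innate immune signaling, was at 529.8 and 490.4 CPM against 90.1, 48.3 and 105 CPM (2.72 ± 0.29, adjusted p = 7.14e-05). miR-146b-5p, which differs from miR-146a-5p at 2 of 22 positions, was at 647 and 1020 CPM against 214 to 368 CPM and rose less (1.40 ± 0.27). The other 4 tested members of this list were not called, among them the abundant miR-21a-5p (-0.21 ± 0.11) and the hypoxia miRNA miR-210-3p (-0.26 ± 0.14). The remaining rises among the 12 largest were weaker in level. miR-140-3p, miR-350-3p and miR-326-3p rose by 2.45, 2.38 and 2.27 on the log2 scale, on 11 to 19 counts per epithelial library. miR-324-5p (107 and 144 CPM against 23.3 to 37.9 CPM) and miR-28a-3p (136 and 124 CPM against 30.6 to 34.1 CPM) rose by 2.10 and 1.99. All 12 largest rises were called in every alternative analysis in which they were tested, and without each library in turn.

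The largest fall among miRNAs measured in both preparations was that of miR-101b-3p, a repressor of the histone methyltransferase EZH2. It was at 102 and 124 CPM in epithelial cells, 38 counts in each library, and at 1054, 1035 and 960 CPM in tissue, 8.97-fold apart (-3.17 ± 0.20, adjusted p = 5.87e-06). Its near-copy miR-101a-3p was at 939 and 1147 CPM in epithelial cells and at 1109, 1065 and 1009 CPM in tissue (-0.03 ± 0.14, adjusted p = 0.863). The listed sequences differ at both ends, so the level of miR-101b-3p can depend on how the counting assigned reads of the pair and on the sequence used in each table. Neither row held fractions, and the assignment was not tested. The imprinted miR-411-5p fell from 1111, 1063 and 1127 CPM to 169 and 252 CPM (-2.43 ± 0.19, adjusted p = 1.30e-05). miR-141-5p, the passenger of miR-141, fell from 368, 404 and 376 CPM to 61.5 and 81.7 CPM (-2.41 ± 0.23), and miR-125b-1-3p from 217 to 241 CPM to 37.5 and 62.1 CPM (-2.23 ± 0.27). miR-148a-5p (-1.69 ± 0.13), miR-186-5p (-1.60 ± 0.13) and miR-872-5p (-1.45 ± 0.17) fell with between 110 and 240 counts in each epithelial library. miR-181c-5p was the most abundant miRNA that fell, from 21124, 22578 and 19771 CPM to 8054 and 7718 CPM (-1.42 ± 0.11, adjusted p = 1.30e-05), and its other arm miR-181c-3p fell alongside (-1.50 ± 0.17). miR-434-3p (-1.45 ± 0.21) and miR-671-3p (-1.41 ± 0.42) complete the 12, and only miR-671-3p lost its call without single libraries (2 of them). No library of one preparation overlapped with the other for these 24 miRNAs, a condition of their choice.

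Members of a seed family could be followed in 38 families of 2 or more tested miRNAs, with 105 members in all. Over all tested miRNAs, 36.8% were called, 16.4% higher and 20.4% lower. All members had identical counts in the family of miR-199a-3p and miR-199b-3p and in that of the 3 miR-465 3p arms, as shared reads were divided. Of the 38 families, 23 held a called member, 12 with higher calls only, 10 with lower calls only and 1 with both. In that family (seed AAGCUCG) miR-99b-3p was higher (1.44 ± 0.28) and miR-99a-3p lower (-1.32 ± 0.38). The let-7 family was spread widely. let-7b-5p rose from 1635, 1780 and 1832 CPM to 5052 and 5433 CPM (1.58 ± 0.11, adjusted p = 1.23e-05). let-7c-5p, the most abundant let-7 in epithelial cells, rose from 18661, 19685 and 18933 CPM to 42237 and 43711 CPM (1.17 ± 0.09), and let-7i-5p rose by 1.11 ± 0.13. let-7f-5p, the most abundant in tissue (30437, 31918 and 30599 CPM), was at 25718 and 29634 CPM in epithelial cells (-0.17 ± 0.10). miR-98-5p was at 816 and 928 CPM against 1285 to 1483 CPM (-0.69 ± 0.14), below 2-fold. The remaining members, let-7a-5p, let-7d-5p, let-7e-5p and let-7g-5p, lay between -0.01 and 0.60 and were not called. let-7b-5p and let-7c-5p therefore rose together, while let-7f-5p, 1 base from let-7a-5p, did not, and the calls of let-7c-5p and let-7i-5p were lost in 4 and 5 of 13 alternative analyses, while that of let-7b-5p was kept in all 13. Of the 3p arms, let-7b-3p (-1.02 ± 0.24), opposite to let-7b-5p, and let-7f-1-3p (-1.97 ± 0.31) were lower.

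In other families, the number of members called varied. In miR-181, miR-181c-5p fell while miR-181a-5p (10617 and 10088 CPM against 9216 to 12443 CPM, -0.03 ± 0.14), miR-181b-5p (0.20 ± 0.19) and miR-181d-5p (-0.56 ± 0.14) were not called. In miR-125, miR-125a-5p fell from 3677, 4426 and 4652 CPM to 1967 and 1605 CPM (-1.25 ± 0.15), and miR-125b-5p stood at 0.63 ± 0.12. miR-30a-5p rose (4803 and 6368 CPM against 1798 to 2039 CPM, 1.55 ± 0.14) and the other 4 members of the miR-30 list were not called, with miR-30e-5p at 0.97 ± 0.19 and miR-30c-5p at 0.81 ± 0.14. miR-152-3p (1.13 ± 0.21), miR-25-3p (1.12 ± 0.12) and miR-221-3p (1.31 ± 0.13) were the only called members of their lists (3, 9 and 2 tested, with 16.4% called higher over all tested miRNAs), and each of miR-152-3p and miR-25-3p lost its call in several alternative analyses. miR-23a-3p and miR-23b-3p rose alike (1.42 ± 0.16 and 1.44 ± 0.20), with miR-24-3p, miR-27a-3p and miR-27b-3p between 0.39 and 0.63. The Hox-cluster miR-196a-5p (12 and 10 counts, 1.73 ± 0.32) and miR-196b-5p (29 and 11 counts, 1.51 ± 0.34) rose, unlike miR-10a-5p and miR-10b-5p, and miR-196b-5p lost its call without epithelial library 1. The 3 miR-29 miRNAs lay between -0.46 and -0.05 and the 5 of miR-15 and miR-16 between -0.57 and 0.93, all below 2-fold. miR-204-5p stood at the 2-fold boundary, with 22657 and 24881 CPM against 11666 to 12234 CPM (0.99 ± 0.10, 1.99-fold).

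**Figure D3:**
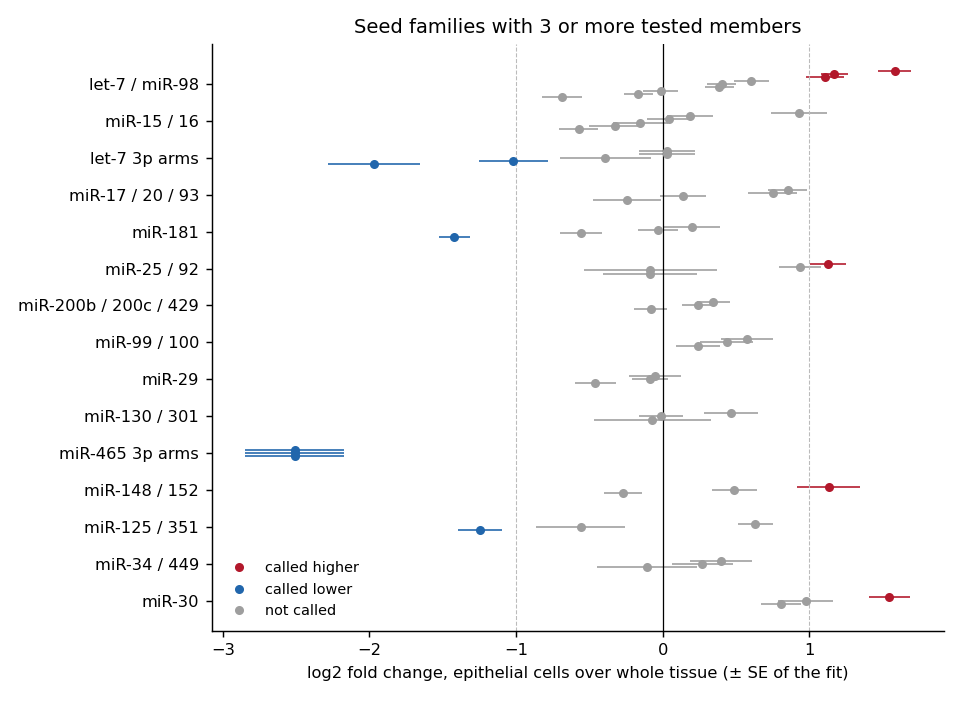
Log2 fold change of epithelial cells over whole tissue for each member of the 15 seed families with 3 or more tested members, with the standard error of the fit as bars and dashed lines at 2-fold. The let-7 family runs from -0.69 (miR-98-5p) to 1.58 (let-7b-5p), and in miR-181 only miR-181c-5p lies beyond 2-fold.

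Of 14 tested miRNAs of the maternally expressed Dlk1-Dio3 cluster (39 listed), 8 fell and the highest value was 0.39, with a median of -1.42, or -0.72 with 5 members at their floor bound. The share called lower was 20.4% over all tested miRNAs and 39.8% over the 108 that passed only through tissue, as did 10 of the 14. The 4 measured in both preparations were miR-411-5p, miR-434-3p and miR-410-3p (45.5 and 85.0 CPM against 150 to 166 CPM, -1.35 ± 0.28), which fell, and miR-127-3p (-0.80 ± 0.14), which did not reach 2-fold. Of these, miR-410-3p lost its call without epithelial library 1. The summed share of the cluster was 0.162% and 0.179% in epithelial cells and 0.379% to 0.438% in tissue, 2.38 times as much in tissue. Of 15 tested members of the Sfmbt2 cluster (miR-297, miR-466, miR-467 and miR-669), 2 fell and 13 were not called (median 0.41). Both that fell, miR-467c-5p (4 and 5 epithelial counts) and miR-467b-5p (0 and 1), passed the filter only through tissue, as did 10 of the 15, and miR-467b-5p lost its call by DESeq2, without epithelial library 1 and without tissue library 2. The cluster's share was 0.0573% to 0.0618% against 0.0518% to 0.0565%.

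The arms of a hairpin gave a comparison that does not depend on the scaling between libraries, since both arms are counted in the same library. Both arms were tested for 77 hairpins, and their ratio did not overlap between the preparations for 53. The log2 fold changes of the arms differed by more than 1 for 35 hairpins, with 4 called in opposite directions (miR-205, miR-214, miR-199b and let-7b) and 9 called in the same direction. The arm that was more abundant in tissue had the higher fold change in 52 of 77 hairpins, but in 15 of the 31 with both arms above 10 in both preparations. The part of the filter on low values in the first count was not tested. Even in those 31, the ratio did not overlap for 27. Across the 77 hairpins, which share libraries, Spearman's rho between the changes of the arms was 0.20.

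Of the 5 hairpins with the largest gap between arms, only miR-145a had both arms above 10 counts in both preparations. The gap was widest for miR-205, whose 3p arm passed the filter only through tissue. miR-205-5p exceeded miR-205-3p by 9.11 and 10.39 on the log2 scale in epithelial cells and by 4.15, 3.79 and 4.34 in tissue. miR-205-3p itself fell from 112, 114 and 77.8 CPM to 16.1 and 6.54 CPM, on 6 and 2 counts (-3.05 ± 0.44, adjusted p = 0.000333), so the guide rose while the passenger fell. miR-145a-5p exceeded miR-145a-3p by 5.22 and 6.34 in epithelial cells and by 1.47 to 1.89 in tissue, as miR-145a-3p was at 96.3 and 111 CPM against 71.5 to 92.4 CPM (0.40 ± 0.23, not called). For miR-210 and miR-200c, the passengers miR-210-5p (113, 170 and 146 CPM in tissue, 5 and 2 counts in epithelial cells, -3.68 ± 0.42) and miR-200c-5p (1 and 0 counts, at least 2.12-fold lower) fell, while the guides were not called.

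By mean counts the dominant arm changed for 8 hairpins, 5 of them with both arms above 10 counts in both preparations. In 4 hairpins (miR-214, miR-199a, miR-152 and miR-136) it changed between every tissue and every epithelial library as counted. Of these, miR-199a and miR-152 had both arms above 10. miR-199a-3p had 818.5, 756 and 929.5 counts in tissue, against 1655.5, 1153.5 and 1650 for miR-199a-5p. As miR-199b-3p carried the same counts, reads of a shared sequence were divided between the 2 names. With undivided 3p reads, the 5p arm would not lead in every tissue library. In miR-214 the 5p arm led in tissue, by 0.49, 0.50 and 0.71 on the log2 scale, and the 3p arm led in epithelial cells, with ratios of -2.09 and -3.17. miR-214-3p rose from 33.9, 35.2 and 37.4 CPM to 107 and 131 CPM (1.73 ± 0.22), and miR-214-5p fell from 47.9, 49.95 and 61.5 CPM to 24.1 and 13.1 CPM (-1.45 ± 0.34), a call lost without epithelial library 2. miR-199a, which comes from Mir199a-2 near Mir214 and from Mir199a-1 on chromosome 9, went the same way by these counts. Its ratios were 1.02, 0.61 and 0.83 in tissue and -1.45 and -1.42 in epithelial cells. miR-199a-3p rose by 1.37 ± 0.14. miR-199a-5p stood at -0.89 ± 0.20 and was called lower in 5 of 13 alternative analyses. miR-152 went from 0.55, 0.07 and 0.14 in tissue to -1.32 and -1.25. In miR-28a, miR-339, miR-30e and miR-582 the leading arm was not the same in all libraries of a preparation, and for miR-582 the ratios overlapped (-0.80 and 2.07 in epithelial cells, 0.87 to 1.79 in tissue). miR-22 held its dominant 3p arm, and its ratio narrowed from between -13.16 and -11.98 in tissue to -10.23 and -10.11 in epithelial cells, as miR-22-5p rose from 31.2, 17.0 and 19.2 CPM to 72.2 and 75.2 CPM (1.78 ± 0.32).

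**Figure D4:**
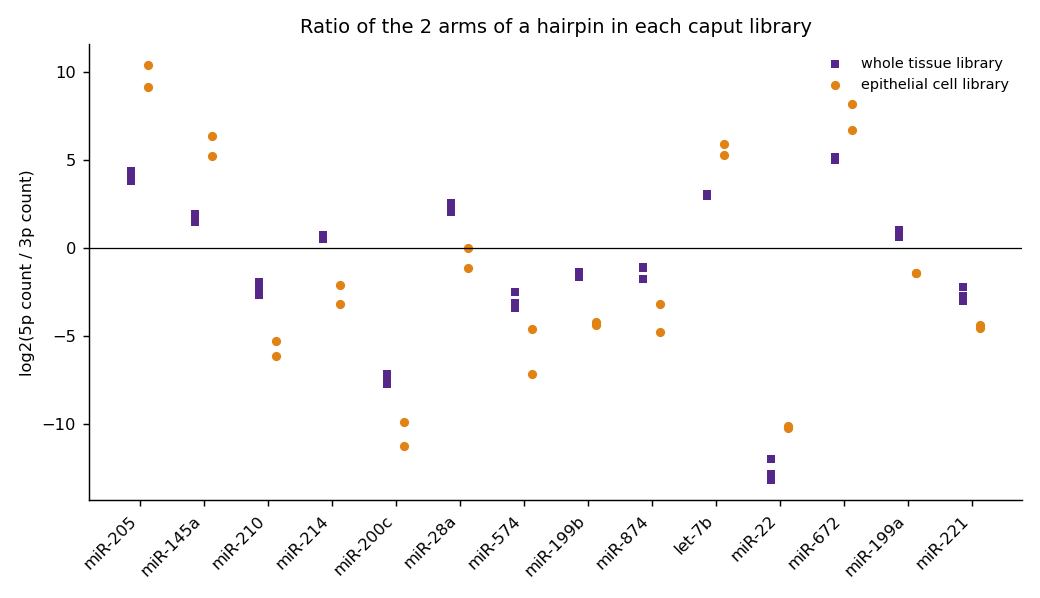
Log2 ratio of the 5p count to the 3p count, after adding 0.5 to each, in every caput library for the 14 hairpins whose arms differed most in fold change. Squares are whole tissue and circles epithelial cells, and miR-214 and miR-199a cross 0, the line of equal arms, between the preparations. The 3p reads of miR-199a were divided equally with miR-199b-3p, and its crossing in every library depends on that division.

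Over the 254 miRNAs with a sequence, Spearman's rho of the log2 fold change was 0.06 with GC content and -0.05 with length, as a description across miRNAs that share libraries. By first base, the 17 matched miRNAs starting with G had a median of -1.09 (1 higher and 9 lower), but only 4 of them were above 10 in both preparations, with a median of -0.31. Those starting with A (12 higher and 19 lower), C (8 and 12) and U (17 and 15) had medians of -0.43, -0.28 and -0.07, and 15% of all 254 were higher and 21.7% lower. By last base, the 40 miRNAs ending in G among those above 10 in both preparations had a median of 0.59 (14 higher and 3 lower). Those ending in U (67), A (34) and C (26) had medians of -0.08, 0.02 and 0.04, with 10 higher and 8 lower for U, 7 and 3 for A and 4 and 3 for C. Over all 167, 21% were higher and 10.2% lower.

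The same contrast in the corpus and cauda, the middle and last regions, shows which caput differences were shared. In a fit of all 14 libraries over 350 miRNAs, 88 (25.1%) were called between the preparations in the corpus and 147 (42%) in the cauda. Of the 50 miRNAs higher in caput epithelial cells, 21 were also higher in the corpus, while 22 were in the cauda and 15 in each of these regions. Of the 62 lower, 36 fell in the corpus, 46 fell in the cauda and 30 in each. Of the 19 lower ones measured in both preparations, 16 also fell in the corpus and 13 did so in the cauda. The remaining 43 had passed the caput filter through their tissue level. Opposite calls were made for 1 of the 50 in the corpus and 1 in the cauda. The 50 and 62 come from the fit of the 5 caput libraries, and the calls of the other regions from the fit of 14. In the latter the median caput value stood lower, so the shared parts of rises and of falls cannot be set against each other. The 25.1% and 42% hold calls in both directions. The regions use different libraries from the same tables. Per the methods, the cauda lumen was flushed by perfusion and the caput and corpus were cleared by incision, so in the cauda this step cannot be told apart from the region. miR-205-5p rose in all 3 regions (2.49, 3.29 and 3.82 from the caput to the cauda), as did miR-145a-5p (4.44, 3.98 and 2.53) and miR-146a-5p (2.62, 2.52 and 3.0). miR-101b-3p (-3.26, -3.66 and -3.89) and miR-411-5p (-2.52, -2.69 and -2.06) fell in all 3.

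Whether the difference between preparations was the same in another region was tested as an interaction of preparation and region. Against the corpus, 5 of 350 miRNAs differed (1.43%), and against the cauda 41 (11.7%). miR-143-3p rose in caput epithelial cells (1.5 ± 0.20) and not in those of the cauda (-0.55 ± 0.20), a difference of 2.06 ± 0.29 (adjusted p = 0.000481). miR-214-3p (2.08) and miR-132-3p (2.82) also rose more in the caput than in the cauda, while miR-205-5p rose less (-1.33). miR-126a-3p rose by 1.51 in the caput and stood at -0.02 in the corpus, a difference of 1.54 ± 0.25 (adjusted p = 0.00599), which was called in all 5 alternative analyses that tested it and was lost without corpus epithelial library 2. Among the epithelial miRNAs, miR-200b-3p and miR-429-3p rose in the cauda (1.77 and 1.00) but not in the caput, with differences of -1.52 and -1.18. None of these 6 miRNAs was called against the corpus, where the differences were 0.28 for miR-143-3p, 1.48 for miR-214-3p, 1.78 for miR-132-3p, -0.81 for miR-205-5p, -0.46 for miR-200b-3p and -0.73 for miR-429-3p.

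**Figure D5:**
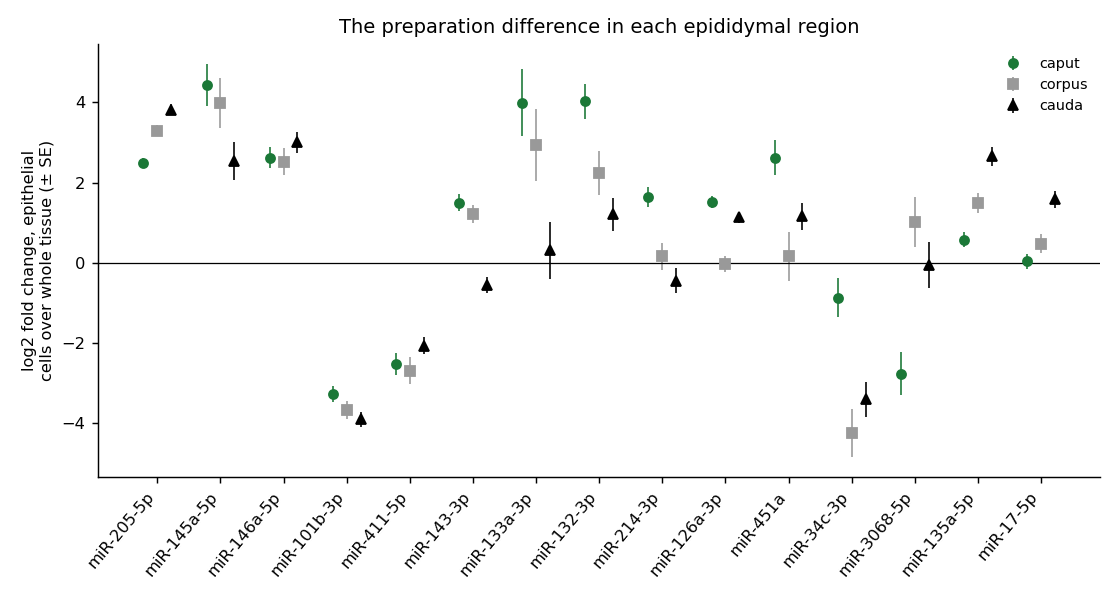
Log2 fold change of epithelial cells over whole tissue in the caput (circles), corpus (squares) and cauda (triangles), from 1 fit of all 14 libraries, with the standard error of the fit as bars. miR-205-5p, miR-145a-5p, miR-146a-5p, miR-101b-3p and miR-411-5p lie on the same side of 0 in all regions, while miR-143-3p and miR-214-3p are above 0 in the caput and below it in the cauda.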

How the data were processed

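Small RNA was sequenced from 2 epithelial cell and 3 whole tissue libraries of the caput. Per the study's methods, 50-base reads were cleaned of adapters and of other RNAs, aligned to mm10 and counted against miRBase (the submitters' notes name Bowtie 1.1.1 and CASAVA 1.8.2). For each preparation the authors deposited 1 table of expected counts by mature miRNA, with reads of shared sequences divided between names, so that 2.95% to 4.58% of values were fractions. Every value of the epithelial table carried an added 0.001, which was subtracted. The tables listed 677 and 900 names. Of these, 578 joined by the same name and 31 after adding the letter a, and counts outside the join were 0.0303% to 0.0477% of each caput library.

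Counts were rounded to whole numbers and scaled by TMM (factors 0.942 to 1.03). The 304 joined miRNAs with a mean count above 10 in either caput preparation were tested with voom in limma 3.58.1 (R 4.3.3), with Benjamini-Hochberg adjustment over all 304 and a call at an FDR below 0.05 and at least 2-fold. Epithelial cells were compared with tissue over the 5 caput libraries, and regions in 1 fit of all 14 libraries, with interaction terms. Summed shares were compared with an exact permutation test (scipy 1.17.1). Arm ratios used counts plus 0.5. A group at 3 counts or fewer in every library was given a bound at 3 counts per library. Alternatives were edgeR 4.0.16, DESeq2 1.42.0, other scalings and filters, identical names, all 14 libraries, a replicate block and leaving out each library. The scripts were checked on simulated counts. Same-numbered libraries did not deviate together (correlations of deviations -0.015 and -0.098 over 304 miRNAs).

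Named miRNAs were the 12 largest rises and falls among called miRNAs above 10 counts in both preparations without overlap, the 5 most abundant per preparation, tested markers of cell types and up to 4 members of other lists, the 5 most abundant seen in 1 preparation alone, the 5 largest interactions in each direction, the 5 hairpins with the largest arm difference and the 5 most abundant names without a partner. Others, such as miR-101a-3p, miR-22-5p, let-7b-3p, miR-146b-5p, the 99 pair and the arms of miR-199a, were chosen after their values were seen. The members and lists were chosen with earlier results of these data known.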

Additional observations from a re-analysis of the deposited data

Results flagged for a closer look

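The effect of preparation differed between the caput and another region for the 15 results given here (values are caput minus the other region on the log2 scale, limma, adjusted over 350 miRNAs). Each was refitted without each of the 14 libraries in turn, where a group left with 1 library was assumed to vary like the others. miR-133b-3p was tested in 13 of these refits.

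Against the corpus, miR-126a-3p differed by 1.54 (adjusted p = 0.00599) and miR-126a-5p by 1.15 (0.00612), as both arms of this endothelial hairpin were higher in caput epithelial cells (mean 2684 CPM against 936 in tissue for the 3p arm) and alike in the corpus (1058 against 1083). The 3p call was lost without corpus epithelial library 2, and the 5p call was kept in 6 of 14 refits. miR-34c-3p differed by 3.37 (0.0335), miR-195a-3p by 2.53 (0.0415) and miR-3068-5p by -3.78 (0.0242). These 3 rest on a mean of 0 CPM in one epithelial group, so the fitted values are no bounds, and they were called in 6, 2 and 8 of 14 refits.

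Against the cauda, several calls held without any single library. miR-135a-5p differed by -2.08 (0.000554), being at a mean of 1876 CPM in epithelial cells and 1267 in tissue of the caput and at 963 and 153 in the cauda. miR-17-5p, the founder of the miR-17-92 cluster, differed by -1.54 (0.00194), with 292 and 285 CPM in the caput and 325 and 105 in the cauda. miR-450a-5p (-2.11, 0.00492) was also called in all 14 refits, and miR-351-5p (-1.71, 0.0142) lost its call without caput epithelial library 2. The muscle miRNAs miR-133b-3p (6.10, 0.00854) and miR-133a-3p (3.68, 0.0318) had positive differences. miR-133a-3p was higher in caput epithelial cells than in caput tissue and not in the cauda, where it was at 311 CPM in epithelial cells and 335 in tissue. miR-133b-3p did not reach a mean count above 10 in either caput preparation, so its caput difference alone was not tested, and its value is no bound. miR-133a-3p kept its call in 2 of 14 refits, and miR-133b-3p, whose mean was 0 CPM in cauda epithelial cells, lost it without caput epithelial library 1. miR-486a-3p (4.89, 0.00208), miR-708-5p (4.47, 0.00715), miR-137-3p (3.83, 0.00719) and miR-3068-5p (-2.71, 0.0286) were below 11 CPM in both caput preparations, and miR-486a-3p and miR-137-3p were at or under the floor in both, so that their values are no bounds. Of these, miR-486a-3p was called in all 14 refits, miR-708-5p lost its call without cauda epithelial library 2, and miR-137-3p and miR-3068-5p were called in 12 and 10. Outliers within a group were not sought, since no group had 4 libraries.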

How the results depend on the processing

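Of the 112 calls, 106 of the 108 made by edgeR, 97 of the 100 made by DESeq2 and 99 of the 123 made in the fit of all 14 libraries were shared. Leaving out each caput library gave 101 to 118 calls, 46 to 59 higher and 55 to 63 lower. The filter on low counts moved the counts most. With at least 10 counts in every library 67 miRNAs were called (32 lower), and with a mean above 10 in both preparations 69 (31 lower), in both cases among fewer miRNAs tested. With every miRNA of at least 1 count 97 were called higher, and the median log2 fold change shifted to 0.46, against -0.36 in the fit of all 14 libraries, where 38 were higher and 85 lower. Directions of differences smaller than these shifts depend on the scaling. Under a CPM threshold, 200 miRNAs were identified in caput tissue. The replicate numbers do not pair the libraries, and the fit with a replicate block gave 106 calls (46 higher and 60 lower).

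The interaction with the corpus gave 3 calls by edgeR and 3 with identical names only, and 1 to 7 without single libraries, with the lowest count without corpus epithelial library 2 or corpus tissue library 2 and 2 without caput epithelial library 2. The interaction with the cauda gave 21 calls with at least 10 counts in every library, and 24 (without caput epithelial library 1) to 53 without single libraries. The causes were not tested.

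Some log2 fold changes changed sign, none of them called in the 5 caput libraries, and 1 of them, miR-9-3p (-0.71), was called without caput epithelial library 1. With at least 10 counts in every library, miR-200c-3p stood at -0.018, miR-181b-5p at -0.070 and miR-17-5p at -0.12. In the fit of all 14 libraries, miR-200c-3p stood at -0.040, miR-34b-5p at -0.0044, miR-181b-5p at -0.082 and miR-17-5p at -0.14. With a mean above 10 in both preparations, miR-181b-5p stood at -0.041 and miR-17-5p at -0.090, and miR-17-5p stood at -0.033 with at least 1 count and at -0.013 under the CPM filter. By DESeq2's test and by its size factors, miR-34c-5p stood at 0.021 and 0.034, let-7d-5p at 0.041 and 0.042, and miR-181a-5p at 0.013 and 0.025. With the replicate block, miR-34c-5p stood at 0.021 and let-7d-5p at 0.0012. Without single libraries, values ranged from -0.13 to 0.039 for miR-10a-5p, -0.071 to 0.059 for miR-34c-5p, -0.62 to 0.36 for miR-449a-5p, -0.86 to 0.071 for miR-470-5p, -1.56 to 0.11 for miR-9-3p, -0.085 to 0.061 for let-7d-5p, -0.068 to 0.086 for miR-181a-5p, -0.058 to 0.43 for miR-181b-5p and -0.89 to 0.20 for miR-450a-5p.

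Depth limits the weak miRNAs of the epithelial libraries, where 101 of the 304 tested would be expected at 10 counts or fewer with an unchanged share, so most lower calls among them rest on few counts.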

Other observations

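Names without a partner in the other table were not compared. In the epithelial table, miR-3107-5p had 97 and 78.5 counts in the caput libraries, and miR-374-5p and miR-720 had means of 31.5 and 17. In the tissue table, let-7j had 142, 149 and 197 counts, miR-486b-5p 104, 91.5 and 116, and miR-378d, miR-8114 and miR-374b-5p means of 67.7, 33.3 and 29. The counts of miR-3107-5p equalled those of miR-486a-5p in both epithelial libraries, and those of miR-486b-5p equalled miR-486a-5p in all 3 tissue libraries.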
